A study of Mus musculus with 42 samples.

Results

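The collagens, laminins and integrins are the main structural proteins of the extracellular matrix and the receptors by which cells hold on to it. They were described here in 42 single retinal cells as the 80 genes whose symbol on the array follows the naming pattern of a collagen chain, a laminin alpha, beta or gamma chain or an integrin subunit, with Col9a3 left out, among 18194 genes with a probe set of their own. Of these 80 genes, 41 were collagens, 10 were laminins and 25 were integrin subunits. The other 4 (Itgb1bp1, Itgb1bp2, Itgb3bp and Itgbl1) carry an integrin-like symbol but do not encode subunits, and were kept apart.

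Single cells were picked by hand from dissociated retinas of CD1 mice at 6 stages and their cDNA was amplified by 35 cycles of PCR and hybridized to 1 Affymetrix 430 2.0 array per cell. All 42 cells carry the label of retinal progenitor cell (RPC), and no transgene, mutation or treatment is named for any of them. The labels place 11 cells at E12.5, 4 at E13.5, 2 at E14.5, 1 at E15.5, 11 at E16.5 and 13 at P0, and the 7 cells of E13.5 to E15.5 were pooled as a middle group. P0 is the day of birth, and P0 cells are also called newborn cells. No label names the animal or litter of a cell, so each stage was treated as 1 sample, no test between stages was made, and every interval below is a 95% interval that covers counting error only.

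The value of a gene was the highest MAS 5.0 signal of its probe sets, where all arrays had been scaled to a trimmed mean signal of 500, and a gene was called present in a cell at a signal of 1000 or more. A cell had between 1386 and 5253 genes present, with a median of 3034. The study classed the cells as progenitors from these same arrays, by genes associated with Ccnd1, Fgf15, Sfrp2 and Crym. Marker genes, among them Ccnd1, are thus no independent check of the label. Over 10 progenitor genes, 73.1% of values were present, and 3 to 10 were present per cell, the fewest in E12.5 cell E5. The most frequent were Pax6 and Ccnd1, each in 41 of the 42 cells, Dkk3 in 40 and Sox2 in 34. Of 10 retinal ganglion genes, 0 to 8 were present per cell. In 5 of the E16.5 cells, namely J1, J2, J4, E8 and F1, the hybridization controls of the array formed a different pattern. These arrays of divergent controls, as they are called below, had a median of 4103 genes present compared with 2114.5 on the other 6 arrays of that stage. Medians and percents at E16.5 are pooled over both sets of arrays, and the counts on each set are given for the genes that were most unequal between them.

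A collagen molecule is a triple helix of alpha chains, and different collagens form fibrils, the sheet of type IV collagen in basement membranes, or membrane-spanning proteins. A laminin is a cross-shaped trimer of 1 alpha, 1 beta and 1 gamma chain that starts the assembly of a basement membrane, and an integrin is a receptor of 1 alpha and 1 beta subunit that binds such matrix proteins and connects them to the actin cytoskeleton. In the developing eye, RPCs span the neuroepithelium and touch the inner limiting membrane, a basement membrane at the vitreal surface, with their endfeet.

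The DNA just before the start of 2 collagen genes is shown, because Col9a1 was the gene of the set present in the most cells and Col23a1 had the largest difference between E12.5 and P0. These are the 250 bases before each start in RefSeq (GRCm38.p6, plus strand), and capitals mark a match to one of 4 motifs searched on both strands. Col9a1 has 2 starts, 17593 bases apart, at the ends of chr1:24177360-24177609 and chr1:24194953-24195202, and the window of Col23a1 is chr11:51289670-51289919.
Col9a1, first start: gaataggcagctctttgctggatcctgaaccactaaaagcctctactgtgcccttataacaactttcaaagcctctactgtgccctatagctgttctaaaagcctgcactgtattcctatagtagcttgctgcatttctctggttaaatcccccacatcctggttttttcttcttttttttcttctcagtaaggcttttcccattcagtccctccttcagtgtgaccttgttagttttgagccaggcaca
Col9a1, second start: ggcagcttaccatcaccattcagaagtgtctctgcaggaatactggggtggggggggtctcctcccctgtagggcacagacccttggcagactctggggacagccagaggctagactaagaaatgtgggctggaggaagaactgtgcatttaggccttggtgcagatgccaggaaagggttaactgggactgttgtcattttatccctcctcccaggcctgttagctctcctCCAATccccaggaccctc
Col23a1: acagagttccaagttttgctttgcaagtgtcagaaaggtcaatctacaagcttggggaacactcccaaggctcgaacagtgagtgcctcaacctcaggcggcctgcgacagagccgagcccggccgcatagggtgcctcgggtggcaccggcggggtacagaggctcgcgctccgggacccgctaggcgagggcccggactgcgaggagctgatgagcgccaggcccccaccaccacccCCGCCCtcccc

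The motifs were ACAAT, the core of SOX factor sites, GGGCGG, the GC box, TATAAA, the TATA box, and CCAAT, the CCAAT box. The SOX core and the CCAAT box share their last 4 letters and cannot match at the same place. The first window of Col9a1 held none of them at a GC content of 43.6%, and the second, with a GC content of 56%, held 1 CCAAT box. In the window of Col23a1, with a GC content of 66%, the sole match was a GC box, read on the opposite strand as CCGCCC. Over 32851 such windows of the mouse genome the median GC content was 52.4%, and 27.7% held ACAAT, 32.7% a GC box, 12.4% TATAAA and 33.8% CCAAT. A match is a stretch of letters and does not show that a factor binds there.

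Most collagen, laminin and integrin genes were seen in few cells. Of the 80 genes, 56 were present in at least 1 cell, close to the 72.6% of all genes, but 15 (18.8%) were present in 10 or more cells compared with 28.7% of all genes. None was present in all 42 cells, which 0.313% of all genes were. The count of 56 depends in part on E13.5 cell A6 and E16.5 cell F1. Without them, 38 of the 80 genes and 11275 of all 18194 genes were present somewhere. Counted over every gene and cell, 324 of 3360 values were present, or 9.64% (8.67 to 10.7), while 17.0% of the values of all genes were. Genes of tissues outside the eye gave a measure of background: 1.52% of the values of 25 skeletal and cardiac muscle genes and 0.980% of those of 17 liver and gut genes reached the same level. Of the values of the set, 25 lay between 900 and 1000 and 23 between 1000 and 1100, just below and just above the level.

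By family, laminins had the highest percent of values present at a level of 1000, and collagens and integrins followed. Laminins were present in 13.1% of their values (10.0 to 16.7), collagens in 9.58% (8.23 to 11.1) and integrin subunits in 8.10% (6.52 to 9.91). The interval of the collagens overlapped both others, and at a level of 5000 the collagens stood first with 4.12% and the laminins last with 2.14%. Among collagens, the multiplexins Col15a1 and Col18a1 reached 17.9% (10.4 to 27.7), all of it from Col18a1, the type IV chains of basement membranes 14.3% (10.2 to 19.2), the transmembrane collagens 12.5% (7.91 to 18.5) and the fibrillar collagens 8.23% (5.89 to 11.1). Among integrins, the beta subunits were present in 12.7% of values (9.51 to 16.5) and the alpha subunits in 5.51% (3.91 to 7.51).

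**Figure D1:**
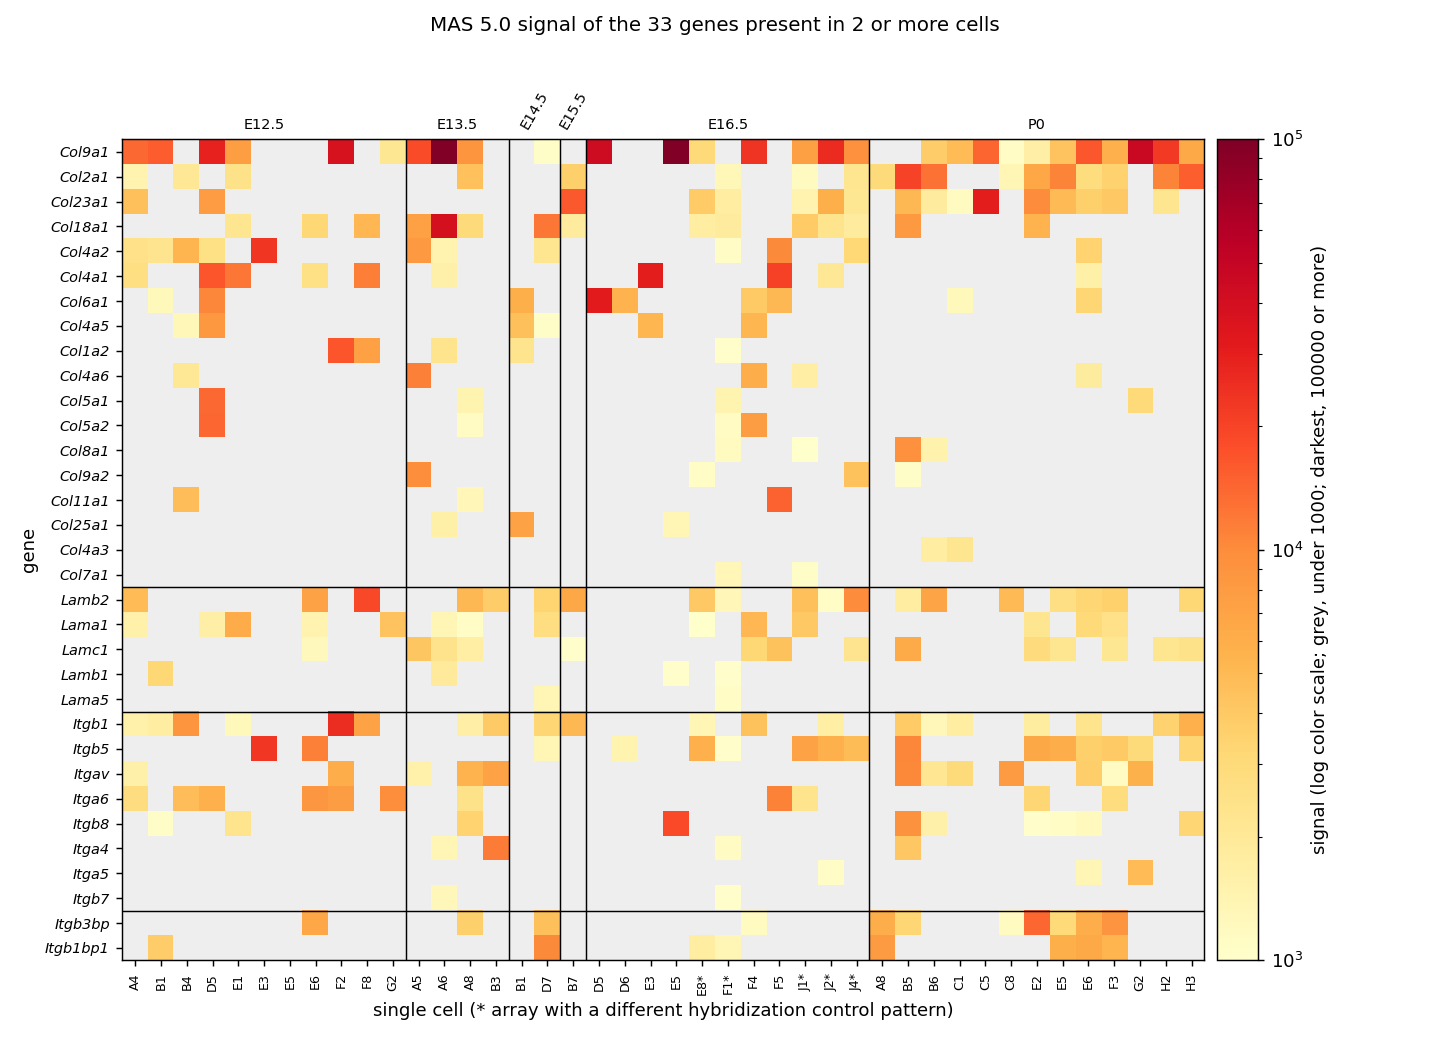
MAS 5.0 signal (log color scale) of the 33 genes present in 2 or more cells (rows, grouped as collagens, laminins, integrin subunits and others) in each of the 42 cells (columns, by stage); grey marks signals under 1000. Col9a1 is filled in 28 cells, and E12.5 cell E5 has no filled square.

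The gene of the set seen in the most cells was a collagen of cartilage and vitreous, although the number of cells also depends on the probe sets of each gene. Col9a1, a chain of type IX collagen that decorates the surface of type II fibrils and is a component of the vitreous, was present in 28 of 42 cells (66.7%, 50.5 to 80.4). Col9a1 had a median signal of 2103 in E12.5 cells (lowest 12.7, highest 37740), 7373 at E16.5 (lowest 26.6, highest 105996) and 4895 in newborn cells (lowest 15.1, highest 46198). The cells of each stage thus covered nearly the whole range, and the stages overlapped. Col9a1 was present in 6 of 11 E12.5 cells, 4 of 7 in the middle group, 7 of 11 at E16.5 and 11 of 13 newborn cells. The P0 percent was 30.1 points above that of E12.5, with an interval that includes 0 (-6.07 to 58.8). The highest signal of Col9a1, 269172, came from E13.5 cell A6. Its partner chain Col9a2 was present in 4 cells, 3 of which also had Col9a1, and its signals reached 9808 in E13.5 cell A5.

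Col2a1, the chain of type II collagen, was seen mainly at P0. Col2a1 had a median signal of 345 in E12.5 cells (lowest 75.6, highest 2419), 338 at E16.5 (lowest 54.0, highest 2204) and 3469 in newborn cells (lowest 14.2, highest 20123). The P0 cells reached higher than those of the other stages, but 3 of them stayed under 1000 and the stages overlapped. It was present in 3 of 11 E12.5 cells, 2 of 7 in the middle group, 3 of 11 at E16.5 and 10 of 13 newborn cells. The difference between P0 and E12.5 was 49.7 points (9.69 to 72.7), and the 3 E16.5 cells were all among the 5 arrays of divergent controls.

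**Figure D2:**
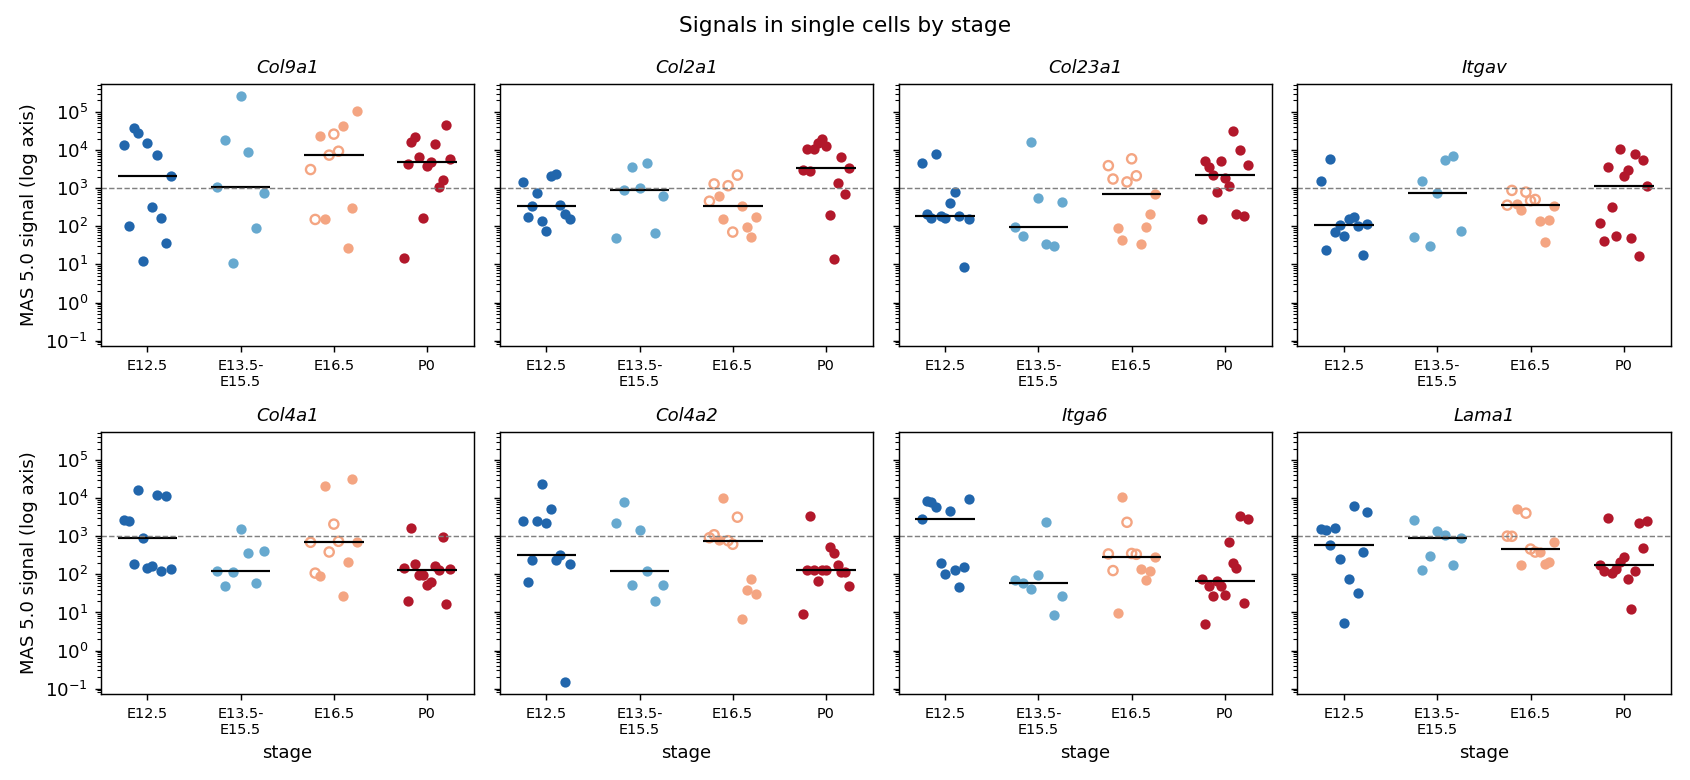
MAS 5.0 signal (log axis) of 8 genes in single cells by stage; each point is 1 cell, open points are the 5 E16.5 arrays of divergent controls, the bar is the median of the stage and the dashed line is 1000. Col2a1 has a median of 345 at E12.5 and 3469 at P0, and Itga6 one of 2769 at E12.5 and 67.3 at P0.

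Col23a1, a transmembrane collagen that can be shed from the cell surface, had the largest difference of the set. Col23a1 had a median signal of 187 in E12.5 cells (lowest 8.38, highest 7820), 707 at E16.5 (lowest 35.0, highest 5896) and 2220 in newborn cells (lowest 153, highest 31028). Present in 2 of 11 E12.5 cells and 9 of 13 newborn cells, it differed by 51.0 points (11.1 to 73.4). This value depends on the probe set: 3 probe sets of Col23a1 were present in 12, 8 and 3 cells, and with the median of the 3 as the value of the gene the difference was 6.29 points. All 5 E16.5 cells with Col23a1 were those on the arrays of divergent controls, and none of the other 6 had it. Another transmembrane collagen, Col25a1, which is made by neurons, was present in 3 cells with a highest signal of 7116 in E14.5 cell B1. E16.5 E5 and E13.5 A6 had lower signals, 1345 and 1613, from a different probe set than that of B1. All 3 cells are classed by the study as transitional between progenitor and neuron.

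The 3 collagens just described met in the same cells mostly at P0. All of Col9a1, Col2a1 and Col23a1 were present in 9 cells, 6 of them at P0, and none of them was present in 9 other cells, of which 0 were at P0 (up to 23.1% of 13 cells is allowed by a count of 0). Of the 28 cells with Col9a1, 13 had Col2a1 and 14 had Col23a1, and of the 14 cells without it, 5 had Col2a1 and 3 had Col23a1. Cells with Col2a1 had a median of 3696.5 genes present and cells without it 2644, and the part of this in the joint counts was not tested.

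Both major chains of type IV collagen, which forms the network of every basement membrane, were seen in fewer cells at P0 than at E12.5. Col4a1 and Col4a2, whose genes lie head to head and whose chains form the most common type IV molecule, were each present in 5 of 11 E12.5 cells, 3 of 11 at E16.5 and 1 of 13 newborn cells. For each gene the P0 percent was below that of E12.5 (-37.8 points, -65.0 to -2.53). Col4a1 had a median signal of 899 in E12.5 cells (lowest 120, highest 16670), 693 at E16.5 (lowest 27.1, highest 30988) and 128 in newborn cells (lowest 16.2, highest 1601). Col4a2 had a median signal of 317 in E12.5 cells (lowest 0.146, highest 23073), 764 at E16.5 (lowest 6.56, highest 10326) and 130 in newborn cells (lowest 8.86, highest 3453). P0 cell E6 was the single P0 cell with either gene, and it was the lone P0 cell above 1000 among values that otherwise overlapped the low cells of E12.5.

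Col4a1 and Col4a2 had the same counts at 3 stages, and of 17 cells with either gene, 5 had both. Col4a2 was thus present in 5 of 10 cells with Col4a1 and in 7 of 32 cells without it. In these cells Col4a1 and Col4a2 had signals of 2685 and 2468 in E12.5 cell A4, 16670 and 2558 in E12.5 cell D5, 1571 and 1482 in E13.5 cell A6, 20274 and 10326 in E16.5 cell F5 and 1601 and 3453 in P0 cell E6. These counts also depend on the probe sets. The 2 probe sets of Col4a1 were present in 6 and 5 cells, for 10 cells with the gene, so they rarely coincided themselves. Col4a2 had 1 probe set. The other type IV chains were sparser: Col4a5 was present in 6 cells, Col4a6 in 5, Col4a3 in 2 and Col4a4 in 1. Between E12.5 and P0, Col4a5 went from 2 cells to 0 and Col4a3 from 0 to 2, and Col4a6 was in 1 cell at each. Col4a5 and Col4a6, which pair with each other, met in 2 of 9 cells with either. Together the 6 type IV genes were present in 19.7% of values in E12.5 cells (10.9 to 31.3), 16.7% in E16.5 cells (8.62 to 27.9) and 6.41% in newborn cells (2.11 to 14.3).

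Genes that mark vessels, mesenchyme and lens, which also make basement membranes in the eye, were counted in the cells with Col4a1 or Col4a2. In the 10 cells with Col4a1, 0 to 2 of 11 endothelial genes were present (median 1), and in the 32 cells without it 0 to 3 (median 1). For Col4a2 the counts were 0 to 3 in 12 cells with it and 0 to 1 in 30 cells without it, both with a median of 1. Of the 33 endothelial values present, 25 were those of Kdr. Cldn5 was present in 3 cells and Eng in 2, while Cdh5, Tie1, Emcn, Esam and Vwf were present in none. The summed signal of the 11 endothelial genes ran from 316 to 20950 in E12.5 cells, from 1154 to 90058 in E16.5 cells and from 2126 to 15581 in newborn cells. Of 11 mesenchymal genes, 0 to 1 were present in cells with Col4a1 and 0 to 5 without it. The counts were 0 to 5 in cells with Col4a2 and 0 to 1 without it, each with a median of 0. Somewhere present were 8 of the 11, led by Acta2 in 3 cells and Pdgfrb, Prrx1 and Rgs5 in 2 each, while Lum, Dcn and Twist1 were in none. Their summed signal ran from 235 to 2050 at E12.5, from 654 to 34001 at E16.5 and from 374 to 9526 at P0. The highest sum was in E16.5 cell F5, which had both Col4a1 and Col4a2. Of 9 lens genes, 0 to 4 were present with Col4a1 and 0 to 7 without it, and 0 to 7 with Col4a2 and 0 to 2 without it, again with medians of 0. E14.5 cell D7, with 7 lens genes, and E13.5 cell A6, with 4, both had Col4a2, and the part of these markers in the counts was not tested.

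Col18a1, the basement membrane collagen whose end fragment is endostatin, was present in 15 cells, most often in the middle stages. It was present in 3 of 11 E12.5 cells, 5 of 7 in the middle group, 5 of 11 at E16.5 and 2 of 13 newborn cells, and the difference between P0 and E12.5 was -11.9 points (-43.2 to 20.2). Col18a1 had a median signal of 237 in E12.5 cells (lowest 56.1, highest 5143), 2959 in the middle group (lowest 85.9, highest 39120) and 215 in newborn cells (lowest 15.9, highest 8300). In the middle group, the highest signal came from E13.5 cell A6, with 4 of 9 lens genes present, and E14.5 cell D7, with 7 of 9, had 12278. Cells with Col18a1 had 0 to 7 lens genes and cells without it 0 to 2, both with a median of 0, and the part of this in the result was not tested. All 5 E16.5 cells with Col18a1 were on the arrays of divergent controls, and none was on the other 6.

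Col6a1, a chain of the beaded filaments of type VI collagen, had the opposite pattern at E16.5. It was present in 0 of the 5 arrays of divergent controls and in 4 of the other 6, with its highest signal of 31532 in E16.5 cell D5. In all it was present in 9 cells (2 of 11 E12.5 cells, 1 of 7 in the middle group and 2 of 13 newborn cells). Its partner chains Col6a2 and Col6a3 were each present in 1 cell, at 1278 and 1001, neither of which had Col6a1.

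The collagens of connective tissue were rare. Col1a2, a chain of type I collagen, was present in 5 cells, with signals up to 16732 in E12.5 cell F2, while its partner Col1a1 reached 859 at most and so was present in 0 of 42 cells (a count of 0 here allows up to 7.14%). Col3a1 was present in a single cell, E16.5 F5, at 18172, where the next highest cell had 956. Col5a1 and Col5a2, the chains of type V collagen, were each present in 4 cells and shared 3 of them, with signals of 13944 and 14158 in E12.5 cell D5. Col11a1 was present in 3 cells and Col8a1, a network collagen, in 4. The anchoring collagen Col7a1 was present in 2 cells, both on the E16.5 arrays of divergent controls, at 1328 and 1062.

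Among laminins, 1 chain of each type accounted for most of the values. Lamb2, the beta chain of the laminins of the retinal and synaptic basement membranes, was present in 19 cells, Lama1, an alpha chain of the early inner limiting membrane, in 14, and Lamc1, the gamma chain shared by most laminins, in 14. Lamb1 followed with 4 cells, Lama5 with 2, and Lama3 and Lama4 with 1 each. Lama2, Lamb3 and Lamc3 were present in none.

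Lamb2 was present in 3 of 11 E12.5 cells, 4 of 7 in the middle group, 5 of 11 at E16.5 and 7 of 13 newborn cells. Lamb2 had a median signal of 276 in E12.5 cells (lowest 98.1, highest 18816), 158 at E16.5 (lowest 9.62, highest 9908) and 1776 in newborn cells (lowest 20.6, highest 6868). The highest signal came from E12.5, where fewer cells had the gene than at P0, and the difference of 26.6 points (-11.7 to 55.4) turned to -10.5 points when presence was set at a signal of 5000. The 5 E16.5 cells with Lamb2 were again those on the 5 arrays of divergent controls.

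Lamc1 was present in 1 of 11 E12.5 cells, 4 of 7 in the middle group, 3 of 11 at E16.5 and 6 of 13 newborn cells, a difference of 37.1 points (0.360 to 62.9) between P0 and E12.5. Of its 2 probe sets, 1 was present in 14 cells and the other in E13.5 cell A6 alone, so the difference came from 1 probe set. Lamc1 had a median signal of 82.9 in E12.5 cells (lowest 13.1, highest 1225) and 859 in newborn cells (lowest 8.57, highest 6168). The E12.5 values lay within the range of P0. Lama1 was present in 5 of 11 E12.5 cells, 3 of 7 in the middle group, 3 of 11 at E16.5 and 3 of 13 newborn cells (-22.4 points, -52.8 to 14.0), with medians of 589 at E12.5 and 180 at P0 and highest signals of 6124 and 3081. With presence set at a signal of 2000 the difference of Lama1 turned to 4.90 points.

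A complete set of laminin chains was seldom found in 1 cell. No laminin chain was present in 12 cells, 1 chain type in 13, 2 chain types in 13 and all 3 types in 4 cells (E12.5 E6, E13.5 A6, E13.5 A8 and P0 F3). Lama1, Lamb2 and Lamc1 met in 3 cells. Lama1, Lamb1 and Lamc1, the chains of the classical embryonic laminin, met in 1 cell, E13.5 A6.

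**Figure D3:**
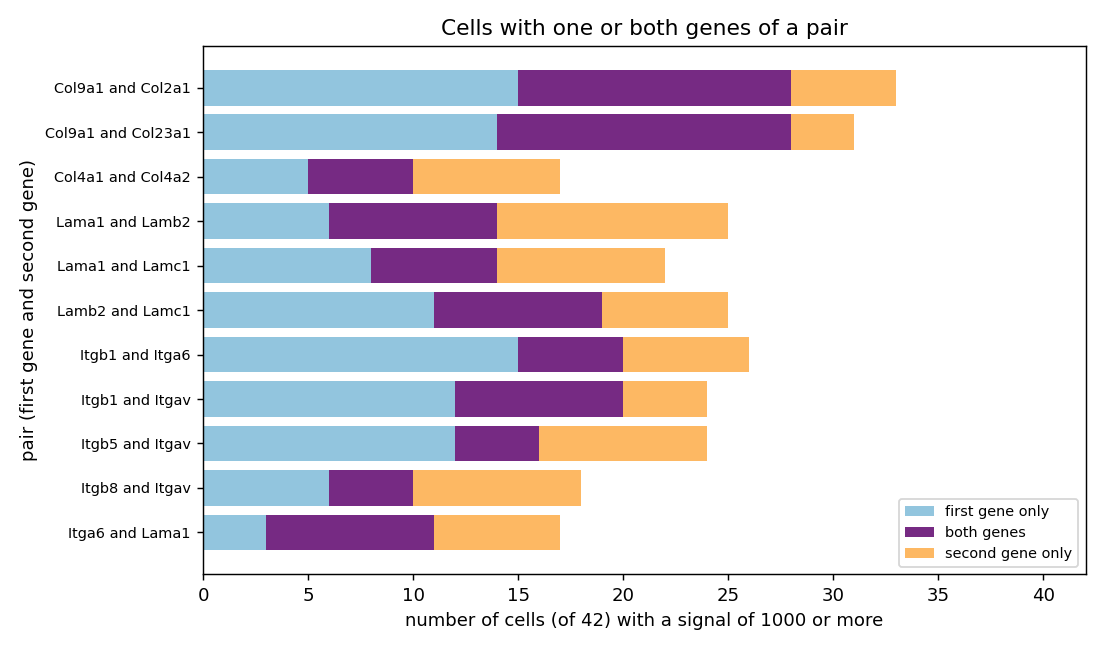
Number of cells (of 42) in which the first gene alone, both genes or the second gene alone had a signal of 1000 or more, for 11 pairs of chains, subunits or ligand and receptor. Col4a1 and Col4a2 share 5 of 17 cells, and Itga6 and Lama1 share 8 of 17.

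Of the integrin beta subunits, which carry the link to the cytoskeleton, Itgb1, Itgb5 and Itgb8 were the ones seen in 10 or more cells. Itgb1, the partner of most matrix-binding alpha subunits, was present in 20 cells. Itgb1 had a median signal of 1242 in E12.5 cells (lowest 122, highest 25824), 250 at E16.5 (lowest 44.5, highest 4446) and 1283 in newborn cells (lowest 44.9, highest 5801). With 6 of 11 E12.5 cells and 7 of 13 newborn cells the percents differed by -0.699 points (-35.3 to 34.4), an interval wide enough to hold a large change in either direction, and 3 of 11 cells had it at E16.5.

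Itgb5, a vitronectin receptor subunit, was present in 16 cells. At E12.5 it was present in 2 of 11 cells, at E13.5 to E15.5 in 1 of 7, at E16.5 in 6 of 11 and at P0 in 7 of 13, which is 35.7 points above E12.5 (-2.82 to 62.1). Itgb5 had a median signal of 162 in E12.5 cells (lowest 10.5, highest 22612) and 2956 in newborn cells (lowest 37.7, highest 10678). A single E12.5 cell, E3, held the highest value of the gene. At E16.5 it was present on all 5 arrays of divergent controls and on 1 of the other 6.

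Itgb8, which with Itgav activates latent TGF-beta, was present in 10 cells, 2 of 11 E12.5 cells, 1 of 7 in the middle group, 1 of 11 at E16.5 and 6 of 13 newborn cells. The difference of 28.0 points (-9.42 to 55.9) came to 6.29 points when the same number of genes was called present in every cell. Median signals were 55.0 for E12.5 cells, 100 for E16.5 cells and 193 for newborn cells, and the highest signal was 18628 in E16.5 cell E5. Itgb7 was present in 2 cells, and Itgb2, Itgb2l, Itgb3, Itgb4 and Itgb6 in none.

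Of the alpha subunits, which set the ligand, Itgav and Itga6 were present in the most cells and differed between stages in opposite directions. Itgav, the alpha subunit of RGD-binding receptors, was present in 2 of 11 E12.5 cells, 3 of 7 in the middle group, 0 of 11 at E16.5 and 7 of 13 newborn cells. Itgav had a median signal of 110 in E12.5 cells (lowest 17.1, highest 5969), 359 at E16.5 (lowest 38.2, highest 875) and 1146 in newborn cells (lowest 16.4, highest 10526). The E16.5 cells all lay under 1000, on either set of arrays, and a count of 0 in 11 cells allows up to 27.3%. P0 was 35.7 points above E12.5 (-2.82 to 62.1). Of the 5 probe sets of Itgav, 1 gave all 12 cells and the other 4 never reached 1000, so that with the median of the 5 the difference was 0 points.

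Itga6, the alpha subunit of laminin receptors, was present in 6 of 11 E12.5 cells, 1 of 7 in the middle group, 2 of 11 at E16.5 and 2 of 13 newborn cells. Itga6 had a median signal of 2769 in E12.5 cells (lowest 45.2, highest 9758), 280 at E16.5 (lowest 9.64, highest 10980) and 67.3 in newborn cells (lowest 5.10, highest 3324). The median P0 cell lay near the lowest E12.5 cells, and 2 P0 cells lay within the E12.5 group that had the gene. P0 was below E12.5 (-39.2 points, -65.8 to -1.41).

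Itga6 and the laminin chain Lama1 were often in the same cell. Of the 11 cells with Itga6, 8 had Lama1, and of the 31 cells without Itga6, 6 had it. Both genes were present together in 4 cells at E12.5, 1 at E13.5 to E15.5, 1 at E16.5 and 2 at P0. The cells with Itga6 had a median of 3114 genes present and those without it 3006.

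Other alpha subunits were scarce. Itga4, a fibronectin and VCAM receptor subunit, was present in 4 cells, with its highest signal of 11594 in E13.5 cell B3. Itga5, the classical fibronectin receptor subunit, was present in 3 cells, up to 4890 in P0 cell G2. Itga1, Itga2, Itga3, Itga9, Itga10, Itgae and Itgal were each present in 1 cell. Itga2b, Itga7, Itga8, Itgam and Itgax were present in none.

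A receptor needs both kinds of subunit, and 18 cells had both an alpha and a beta subunit present. Any beta subunit was present in 31 cells and any alpha subunit in 23. Itgb1 was present with at least 1 of its alpha partners in 12 of 20 cells, with Itgav in 8 and with Itga6 in 5. Of the 22 cells without Itgb1, 11 had such an alpha subunit, 4 had Itgav and 6 had Itga6. Itgav was present with a beta partner in 10 of 12 cells, and 20 of the 30 cells without Itgav had such a beta subunit. Itgb5 and Itgav met in 4 cells, all at P0. Itgav was present in 6 of the 21 cells that had Itgb5 or Itgb8, and in 6 of the 21 cells that had neither.

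Of the 4 genes that share the integrin name without being subunits, 2 were present. Itgb3bp, a centromere protein also known to bind the beta 3 tail, was present in 1 of 11 E12.5 cells, 2 of 7 in the middle group, 1 of 11 at E16.5 and 7 of 13 newborn cells. Itgb3bp had a median signal of 127 in E12.5 cells (lowest 40.9, highest 6723) and 1160 in newborn cells (lowest 55.7, highest 14206), so that the low cells of both stages overlapped. The difference was 44.8 points (6.93 to 68.9), but 1 of its 5 probe sets gave all 11 cells and with the median of the 5 the difference was 0 points. Itgb3, the subunit it is named for, was present in no cell. Itgb1bp1, a cytoplasmic protein that binds the beta 1 tail, was present in 8 cells, 4 of them at P0.

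**Figure D4:**
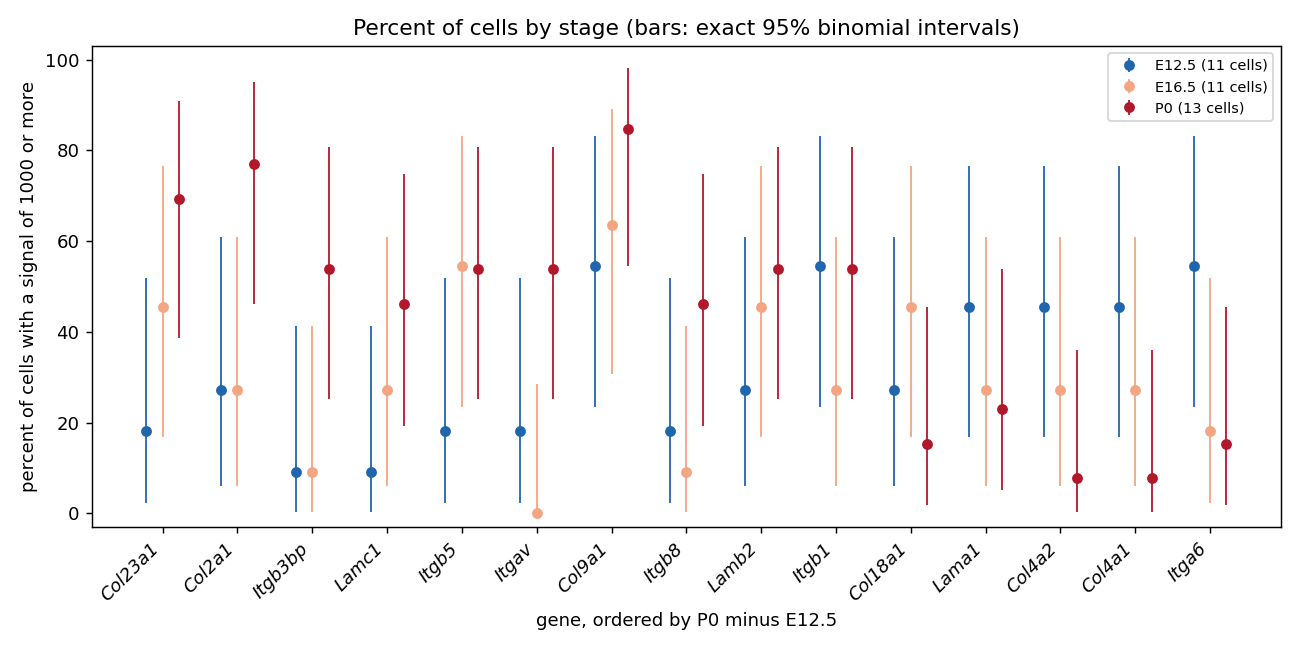
Percent of the 11 E12.5, 11 E16.5 and 13 P0 cells with a signal of 1000 or more, for the 15 genes present in 10 or more cells, ordered by P0 minus E12.5; vertical bars are exact 95% binomial intervals. Col23a1 stands at 18.2% at E12.5 and 69.2% at P0, Itga6 at 54.5% and 15.4%, and the bars of most genes overlap.

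Over the whole set, 9 of 80 genes (11.2%) were present in a percent of cells at least 25 points higher at P0 than at E12.5, where 7.13% of all genes were. They were Col23a1, Col2a1, Itgb3bp, Lamc1, Itgav, Itgb5, Col9a1, Itgb8 and Lamb2. Lower by at least 25 points were 3 genes (3.75%), Itga6, Col4a1 and Col4a2, where 2.50% of all genes were. With the same number of genes called present in every cell the counts were 7 higher and 6 lower. No share of all genes is given for that setting, so these counts cannot be set against the whole array. Of the 80 genes, 48 were present in no cell at either stage. The median difference was 0 points for the set and for all genes. The percent of values present was 7.39% in E12.5 cells (5.75 to 9.32), 11.8% in the middle group (9.23 to 14.7), 10.1% in E16.5 cells (8.20 to 12.3) and 10.0% in newborn cells (8.24 to 11.99), and that of all genes was 15.3%, 18.1%, 16.8% and 18.1%.

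Cells differed widely in how many of the genes they had. The number per cell ran from 0 in E12.5 cell E5 to 25 in E16.5 cell F1, with a median of 7. The median was 7 for the E12.5 cells, the middle group and the newborn cells, and 9 for the E16.5 cells. At E16.5 the 5 arrays of divergent controls had 9 to 25 genes (median 9) and the other 6 had 2 to 9 (median 3). Relative to the genes present in each cell, the set made up between 0 and 0.535 of every 100 genes, with a median of 0.231.

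**Figure D5:**
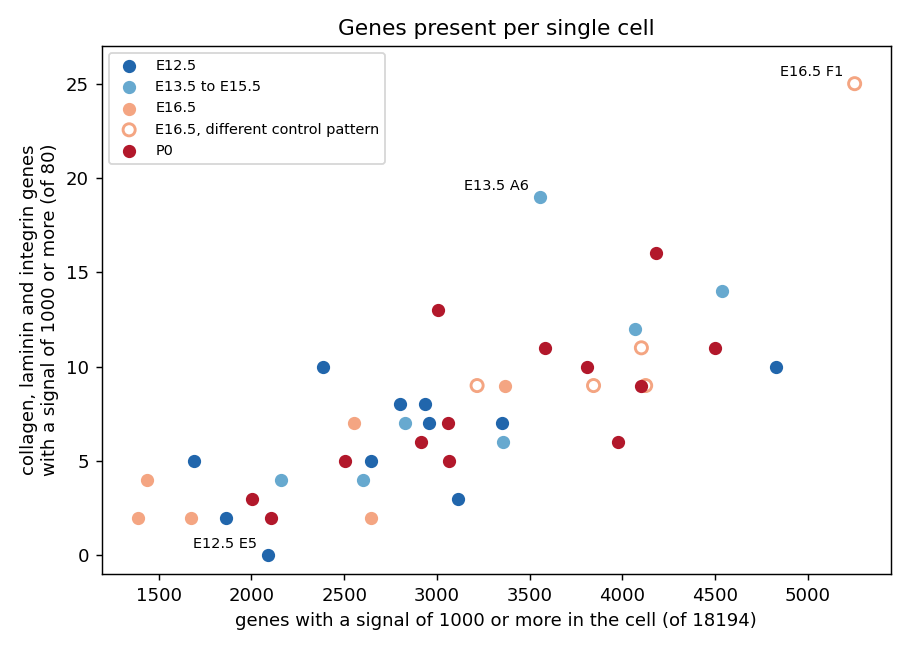
Number of collagen, laminin and integrin genes with a signal of 1000 or more (of 80) against the number of all genes present in the same cell (of 18194); each point is 1 of 42 cells, colored by stage, and open points are those with divergent controls. E16.5 F1 has 25, E13.5 A6 has 19 and E12.5 E5 has 0.

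The cells F1 and A6, both classed by the study as transitional between progenitor and neuron, held most of the genes that were seen once. Of the 80 genes, 23 (28.7%) were present in a single cell, compared with 14.6% of all genes, and 9 of these were in E16.5 F1 and 8 in E13.5 A6. In 15 of these 17 genes the signal was between 1001 and 2244. The other two were Col27a1 and Col24a1, a pair of closely related fibrillar collagens, at 160670 and 198788 in A6, where the next highest cell had 687 and 165. In A6, 4 of 9 lens genes, 3 of 25 muscle genes and 5 of 17 liver and gut genes were present. In F1, 5 of 11 mesenchymal, 3 of 11 endothelial and 4 of 25 muscle genes were present. The part of all these markers in the counts was not tested. Without both cells, 38 of the 80 genes remained present somewhere, and the percent of values present was 8.75%. Genes were lost over the whole array too. Of all 18194 genes, 2648 were present in a single cell, and 13200 were present somewhere with both cells and 11275 without them. Without them, 16.7% of the values of all genes were present.

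In no cell were 24 genes present, with highest signals between 394 and 946. Besides those named above, they were the collagens Col10a1, Col11a2, Col12a1, Col14a1, Col15a1, Col17a1, Col20a1 and Col26a1 and the integrin-named Itgb1bp2 and Itgbl1.

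Genes that work with the set were counted in the same way, against the 17.0% of values present over all genes. Of 25 other matrix proteins and matrix receptors, 21 were present somewhere and 18.7% of their values reached the level (16.4 to 21.2), led by Agrn, the heparan sulfate proteoglycan agrin, in 35 cells, Dag1, the laminin receptor dystroglycan, in 30, Sparc, a collagen-binding glycoprotein, in 26 and Fn1, fibronectin, in 24. Of 25 enzymes, chaperones and receptors of collagens, 22 were present, in 22.9% of values (20.3 to 25.5). These were led by Serpinh1, the collagen chaperone of the endoplasmic reticulum, in 34 cells, and by P4hb, Ppib and the collagen receptor Ddr1 in 33 each. All 29 genes that connect integrins to actin and signaling were present, in 27.8% of values (25.3 to 30.4), led by Flna in 29 cells, Rap1b in 27, Cd81 in 26 and Rapgef1 in 21.

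Some of these genes differed by 25 points or more between P0 and E12.5, as 7.13% of all genes were higher and 2.50% lower. Among the 25 matrix partners 0 were higher at P0 and 1 was lower, among the 25 enzymes, chaperones and receptors of collagens 1 was higher and 2 were lower, and among the 29 adhesion genes 5 were higher and 1 was lower. Serpinh1 was present in all 11 cells at E12.5 and in 9 of 13 newborn cells (-30.8 points, -57.6 to 0.808). Ddr1 was also present in all 11 at E12.5 and in 8 of 13 newborn cells (-38.5 points, -64.5 to -5.29).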

How the data were processed

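Single-cell cDNA made with an oligo(dT) primer and 35 PCR cycles was hybridized to Affymetrix 430 2.0 arrays. The deposited values are signal intensity per probe set, made by the authors with MAS5 and scaled to a target of 500, per the labels and the study's methods; trimmed means ran from 500.002 to 500.023. Priming at the poly(A) tail favors probe sets near the 3' end. Of 45101 probe sets, 34958 had 1 gene symbol and 932 had several, which were left out, giving 18194 genes. The 163 probe sets of the 80 genes were used, and all 80 matched RefSeq gene identifiers.

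Cells were grouped by the stage in their labels. Shares have exact Clopper-Pearson intervals and differences of shares Newcombe intervals, both at 95%, and a count of 0 allows up to 3 counts. Genes of the same cells are not independent. The number of cells per stage limits the precision. No 2 cells were duplicates (highest correlation 0.705). The genes, lists and rule for named genes (genes present in 10 or more cells, the 5 largest differences each way and the 2 most frequent of each subgroup) were chosen with earlier results of these data known. The 6 transitional cells are those so classed by the study.

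Alternatives were presence at 500, 2000 and 5000, the median of the probe sets, probe sets without cross-hybridizing suffixes, an equal number of genes per cell, and leaving out cells. The scripts were tested on simulated data. Python 3.11.15, numpy 2.4.6, pandas 2.3.3, scipy 1.17.1 and matplotlib 3.10.9 were used.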

Additional observations from a re-analysis of the deposited data

How the results depend on the processing

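No paired analysis was possible because the cells carry no number that links stages. At a level of 500, collagens, laminins and integrins were present in 16.4%, 19.3% and 14.2% of values, matrix partners, collagen enzymes and adhesion genes in 24.9%, 27.3% and 37.8%, 5 genes were lower at P0 by 25 points, 9 cells had Col4a1 and Col4a2 and 8 had all 3 laminin chain types. At 2000 the families were at 6.74%, 8.57% and 5.14% and the lists at 14.0%, 18.3% and 19.6%, with 3, 1 and 4 cells for Col4a1 and Col4a2, for 3 laminin chain types and for Itgav and Itgb1. At 5000 the families were at 4.12%, 2.14% and 2.57%, so that laminins were no longer the most frequent, and the lists at 8.86%, 11.3% and 9.44%. At that level 2 genes were higher at P0, 31 genes were present in at least 1 cell with a median of 2 per cell, the cell counts were 1, 0 and 1, and the difference of Lamb2 was -10.5 points.

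With the median of the probe sets, collagens were at 7.32% and integrins at 4.10%, the lists at 8.76%, 18.1% and 19.3%, 5 genes were higher at P0, the cell counts were 3, 1 and 0, and the differences of Col23a1, Itgb3bp and Itgav were 6.29, 0 and 0 points. With the highest 3034 genes of each cell called present, 7 genes were higher at P0, without Col9a1 and Itgb8, 6 were lower (Col4a1, Col4a2, Col4a5, Lama1, Itga3 and Itga6) and 4 cells had Itgav and Itgb1. The shares of all genes that were higher or lower at this setting are not given. Without the 6 transitional cells, which include E13.5 A6 and E16.5 F1, 37 genes of the set and 11118 of all 18194 genes were present in at least 1 cell. Without the 5 E16.5 arrays of divergent controls 45 genes of the set and 11715 of all genes were present in at least 1 cell. Without E13.5 A6 and E16.5 F1 (chosen after seeing the data) these were 38 and 11275 genes, with collagens at 8.54%. Leaving out either set could not change the 9 higher and 3 lower counts, because neither set holds an E12.5 or P0 cell. Probe sets without the cross-hybridizing suffixes kept these counts.

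Leaving out each cell in turn gave 8.98% to 9.82% for collagens, 12.4% to 13.4% for laminins and 7.71% to 8.29% for integrins, 18.2% to 18.9%, 22.3% to 23.3% and 27.2% to 28.4% for the lists, 7 to 9 genes higher and 3 to 4 lower at P0, and 47 to 56 genes present in at least 1 cell, the fewest without E16.5 cell F1. Among single genes, Col9a1, Lamb2 and Itgb8 came down to 24.6, 22.7 and 23.5 points at the lowest, under the 25 points used above, and Lama1 reached -28.8 points.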

Other observations

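E16.5 F1 and E13.5 A6 are among the 6 cells that the study classes as transitional between progenitor and neuron. These 6 had 2 to 25 collagen, laminin and integrin genes present (median 4), and the other 36 cells had 0 to 16 (median 7). Their median numbers of genes present were 2352.5 and 3062.5. Col9a1 was present in 4 of these 6 cells, and Itgb1, Itgav and Itga6 in 0 of the 6. In the other 36 cells Itgb1, Itgav and Itga6 were present in 20, 12 and 11. The signal of Itgb1 in E13.5 A6 was 997, just under the level. Lamb1 was present in 4 cells, 3 of which were transitional, at 1028.5 in E16.5 F1, 1035 in E16.5 E5 and 1930 in E13.5 A6. The lens genes were concentrated in E14.5 cell D7, with 7 of 9 present, which had 12 genes of the set.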
